A study of Rattus norvegicus with 18 samples.

Results

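The 10 genes described here encode receptors for extracellular nucleotides and adenosine, together with 1 enzyme that links both. They are the ATP-gated channels P2rx4 and P2rx7, the nucleotide receptors P2ry1, P2ry2, P2ry6 and P2ry14, the ectonucleotidase Entpd1 (CD39), and the adenosine receptors Adora1, Adora2a and Adora2b. The genes were taken as a list of symbols, and all 10 were found among the 16704 gene symbols shared by the astrocyte and microglia count tables. RNA was sequenced from primary cultures of wild-type (WT) rat astrocytes and microglia, the support cells and the resident immune cells of the brain. Each cell type was left untreated (control) or exposed to fibrils of the amyloid β-protein of 42 residues (Aβ42) or of 40 residues (Aβ40), and all cultures were collected at 24 h. There were 6 groups with 3 libraries each, 18 libraries in all. The study asked how each cell type responds to each fibril. Per the study's methods, cortical glia came from postnatal day 2 Sprague Dawley pups and were first grown as mixed cultures. Microglia were shaken off and astrocytes were the layer left on the flask, so each culture may hold some of the other type.

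Cells under stress or damage release ATP and related nucleotides, which act as danger signals on neighbouring cells. P2X receptors are ion channels opened by ATP, whereas P2Y receptors couple to G proteins and respond to ATP, ADP, UTP, UDP or UDP-sugars. CD39 removes phosphates from ATP and ADP, CD73 (encoded by Nt5e) completes the conversion to adenosine, and adenosine then acts on its own receptors. In microglia this system is known for steering process movement, phagocytosis and interleukin-1β release.

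Counts on genes ranged from 3674043 to 19013919 per astrocyte library and from 2271834 to 22274367 per microglia library, a 9.80-fold range in the latter. A gene with 3 counts, used here as the detection limit, stood at 0.16 to 0.835 CPM (read counts relative to the library's total on genes) in astrocytes and at 0.13 to 1.38 CPM in microglia. The 8 microglial markers summed to 7310 to 8350 CPM in untreated microglia and to 303 to 354 CPM in untreated astrocytes. The 8 astrocyte markers summed to 8580 to 10500 CPM in untreated astrocytes and to 239 to 268 CPM in untreated microglia. Tested between untreated cultures at an adjusted p under 0.05, 7 of the 8 microglial markers were higher in microglia and 1 did not pass. All 8 astrocyte markers were lower there, where 34.2% of all genes were higher and 34.5% lower. The labels therefore fitted the defining markers apart from that 1, with each culture also holding transcripts of the other type. Oligodendrocyte lineage markers summed to 1730 to 2570 CPM in untreated astrocytes and 1960 to 2170 CPM in untreated microglia. Nothing in the labels says that the replicates were separate cultures, so p-values measure only the spread between these libraries, which may be technical. All values below are CPM scaled by edgeR's TMM factors within a cell type unless stated, and each p comes from edgeR's quasi-likelihood fit and was adjusted over all genes tested (Benjamini-Hochberg), with a call made at an adjusted p under 0.05. Levels are compared within a gene only, since counts were not divided by transcript length. In bulk RNA, fewer cells of a type and less RNA per cell cannot be told apart.

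The promoters of 8 of the 10 genes were in the RefSeq promoter table (build GRCr8). Those of P2ry6 and Adora2a were not. The 250 bases before the start site used by that table are shown for 4 genes. P2ry2 and Entpd1 moved the same way in both cell types, whereas P2rx4 and Adora1 moved in opposite ways. Letters in capitals are matches, on either strand, to 1 of 6 motifs searched.
P2ry2, chr1:164779489-164779738, minus strand: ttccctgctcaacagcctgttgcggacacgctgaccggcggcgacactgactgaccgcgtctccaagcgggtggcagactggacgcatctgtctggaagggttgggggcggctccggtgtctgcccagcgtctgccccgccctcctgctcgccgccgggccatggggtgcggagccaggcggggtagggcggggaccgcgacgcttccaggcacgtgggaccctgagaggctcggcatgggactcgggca
Entpd1, chr1:249422614-249422863, plus strand: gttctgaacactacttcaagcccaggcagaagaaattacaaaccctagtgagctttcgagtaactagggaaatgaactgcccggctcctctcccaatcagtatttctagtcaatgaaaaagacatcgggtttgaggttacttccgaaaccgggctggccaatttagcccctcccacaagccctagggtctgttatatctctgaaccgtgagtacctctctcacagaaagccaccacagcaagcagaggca
P2rx4, chr12:39523090-39523339, minus strand: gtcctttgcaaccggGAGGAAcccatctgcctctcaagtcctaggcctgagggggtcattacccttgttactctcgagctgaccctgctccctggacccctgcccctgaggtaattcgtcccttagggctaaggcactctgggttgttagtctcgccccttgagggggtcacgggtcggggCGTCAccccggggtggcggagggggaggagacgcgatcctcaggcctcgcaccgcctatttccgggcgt
Adora1, chr13:48246832-48247081, minus strand: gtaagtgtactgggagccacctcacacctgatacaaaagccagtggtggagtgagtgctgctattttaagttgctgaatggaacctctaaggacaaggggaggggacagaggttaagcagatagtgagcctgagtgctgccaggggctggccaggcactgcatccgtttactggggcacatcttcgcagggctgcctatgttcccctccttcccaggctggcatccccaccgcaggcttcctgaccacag

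The motifs were AP-1 (TGANTCA), STAT (TTCNNNGAA), PU.1 (GAGGAA), the CRE core (TGACG), NF-κB, and the interferon-stimulated response element (GAAA, a pair of any bases, GAAA). Among 33469 rat promoter windows of the same length, 6.34% held AP-1, 7.67% STAT, 23.3% PU.1, 18.2% the CRE core, 6.33% NF-κB and 3.41% the interferon element. The P2rx4 window held 1 PU.1 match starting 235 bases before the start site and 1 CRE core match starting 69 bases before it, with no overlap. The P2ry2, Entpd1 and Adora1 windows held none of the 6, nor did that of P2ry1. P2rx7 and Adora2b each held 1 PU.1 match and P2ry14 held 1 CRE core match. A match describes these letters only. By the order of protein-coding genes in the RefSeq table, P2rx4 and P2rx7 are direct neighbours on chromosome 12 and P2ry2 and P2ry6 are direct neighbours on chromosome 1.

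Before treatment, microglia held more of the nucleotide receptors among the 10 genes and of CD39, and astrocytes held more of the adenosine receptors among them. Other receptors of these families, given further below, went both ways. In one fit over all 18 libraries, all 10 genes were tested, and 7 were higher and 3 lower in untreated microglia, where 34.2% of all genes tested were higher and 34.5% lower. P2rx4, an ATP-gated cation channel of microglia, was at 575 ± 22.5 CPM in untreated microglia and 80.4 ± 11.5 CPM in untreated astrocytes (mean ± SD, n = 3, scaled over all 18 libraries). That is 7.19-fold higher in microglia (log2 2.85 ± 0.13 SE, adjusted p = 6.70e-13). Entpd1 was 16.8-fold higher in microglia, at 41.5 ± 8.93 against 2.49 ± 0.178 CPM (adjusted p = 3.07e-11). P2ry2, a receptor for ATP and UTP, was 16.0-fold higher, and P2ry6, the UDP receptor linked to phagocytosis, was 7.16-fold higher. P2ry14, the UDP-glucose receptor, rested on 38 counts in untreated microglia and 14 in untreated astrocytes and was 3.45-fold higher. Smaller excesses were found for the ADP receptor P2ry1 (2.77-fold) and for P2rx7 (1.78-fold), the channel that triggers inflammasome activity.

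Adora1, the Gi-coupled adenosine A1 receptor, went the other way. It stood at 31.5 ± 3.12 CPM in untreated astrocytes and 5.58 ± 1.84 CPM in untreated microglia, 5.45-fold lower in the latter (adjusted p = 2.40e-09). The Gs-coupled receptors Adora2a and Adora2b were 3.87-fold and 2.46-fold lower in microglia (adjusted p = 0.00508 and 5.59e-04). The share of all genes whose groups did not overlap was not computed (34.2% were called higher and 34.5% lower). For 9 of the 10 genes here, the 3 libraries of each group did not overlap. Adora2a was the exception, and without astrocyte control replicate 3 its difference fell to a log2 value of -1.27 with an adjusted p of 0.155.

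**Figure D1:**
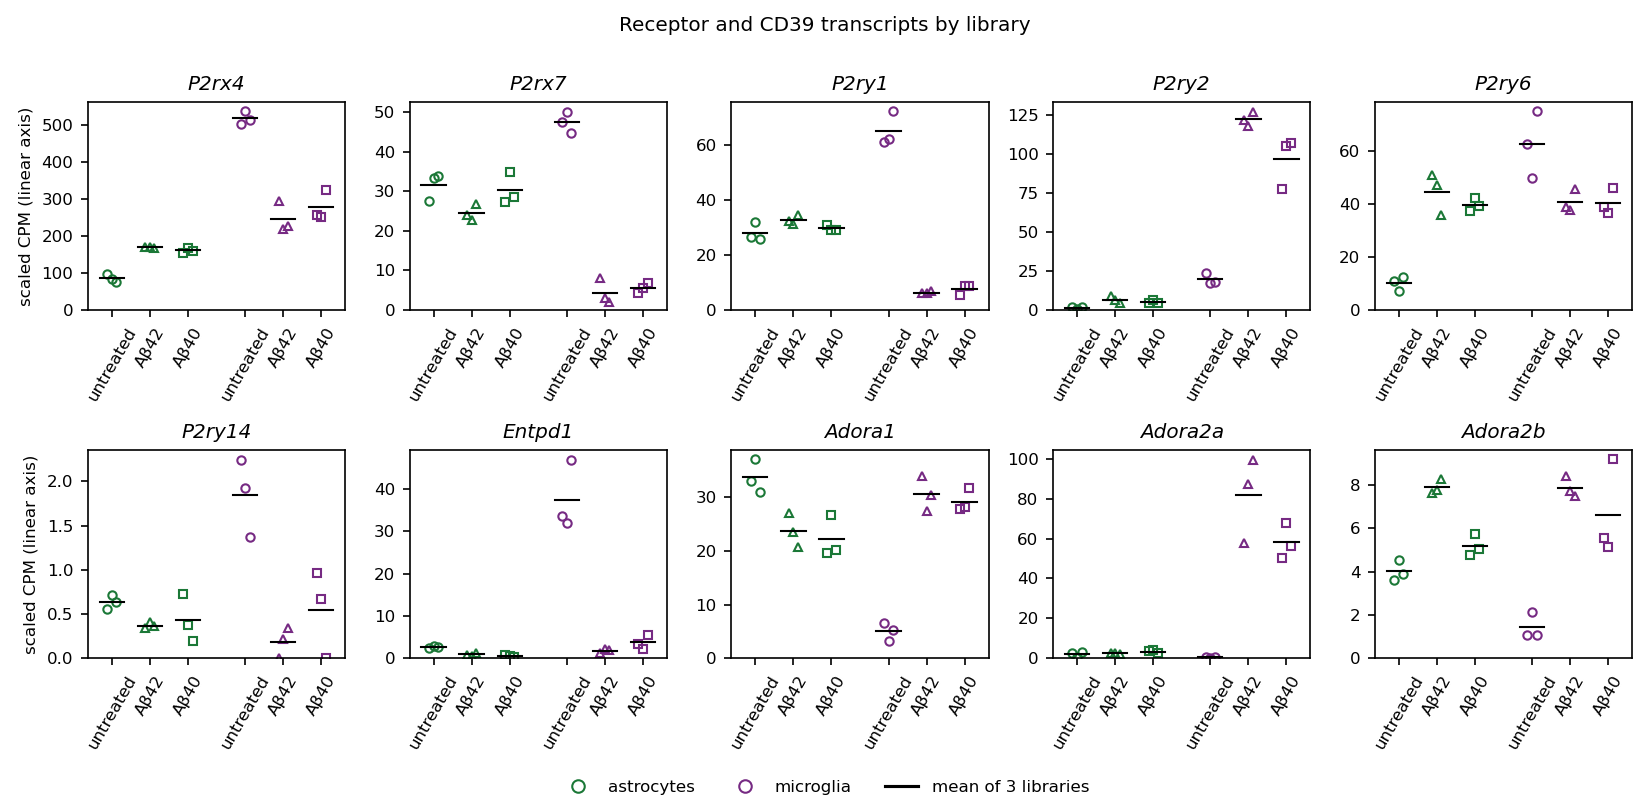
Scaled CPM (linear axes, 1 panel per gene) of the 10 genes in each library of untreated, Aβ42-treated and Aβ40-treated astrocytes (green) and microglia (purple), with bars at the mean of 3 libraries. Adora2a in treated microglia sits between 50.4 and 99.4 CPM, above untreated microglia at 0.193 to 0.707 CPM, and Entpd1 in treated microglia sits at 1.20 to 5.52 CPM, below 31.9 to 46.8 CPM in untreated microglia.

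In microglia, P2rx4, P2rx7, P2ry1, P2ry6 and CD39 fell with both fibrils, and P2ry2 and the 3 adenosine receptors listed rose. With Aβ42, 4 of the 9 genes tested were higher and 5 lower, where 27.1% of all genes were higher and 26.6% lower. With Aβ40 the counts were again 4 and 5, where 19.6% of all genes were higher and 21.4% lower. The same untreated libraries serve both comparisons. The median log2 change of the 9 genes was -0.61 with Aβ42 and -0.64 with Aβ40, against 0.01 over all genes in each. Both medians are the values of P2ry6, and they describe no common shift. The 9 genes ranged from -4.19 to 7.36 with Aβ42 and from -3.46 to 6.85 with Aβ40. Over the same libraries the sum of the 8 microglial markers fell from 7310 to 8350 CPM to between 1930 and 3140 CPM with Aβ42 and between 2750 and 3410 CPM with Aβ40, with none of the 8 at 0 in a whole group. Not all 8 fell, and Itgam, an integrin of myeloid cells, rose from 372 ± 23.5 to 693 ± 48.2 and 766 ± 16.6 CPM. The astrocyte marker sum stood at 219 to 268 CPM in all 9 microglia libraries. Its genes went both ways, and of 7 tested, 2 were higher and 1 lower with each fibril. The fibroblast and meningeal sum went from 69.0 ± 8.09 to 154 ± 14.2 and 124 ± 3.61 CPM, the endothelial sum from 167 ± 6.56 to 47.4 ± 11.7 and 93.3 ± 11.6 CPM, and the neuronal sum from 256 ± 8.33 to 289 ± 29.7 and 343 ± 13.5 CPM. Oligodendrocyte lineage markers went from 1960 to 2170 CPM to 2180 to 2830 and 2210 to 2670 CPM. The part of the marker changes in the results below was not tested.

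P2rx7 stood at 47.6, 50.2 and 44.7 CPM in the 3 untreated microglia libraries, at 8.0, 3.16 and 2.11 CPM with Aβ42 and at 4.34, 5.59 and 6.89 CPM with Aβ40. All 6 treated libraries lay below all 3 untreated ones. The fall was 14.7-fold with Aβ42 (log2 -3.88 ± 0.29 SE, adjusted p = 3.19e-07) and 8.74-fold with Aβ40 (log2 -3.13 ± 0.31, adjusted p = 4.79e-06). Its neighbour P2rx4 fell less. P2rx4 was at 502, 538 and 512 CPM untreated, at 295, 220 and 226 CPM with Aβ42 and at 256, 252 and 323 CPM with Aβ40, with no overlap. The falls were 2.11-fold (adjusted p = 3.34e-05) and 1.87-fold (adjusted p = 1.76e-04).

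P2ry1 fell 10.2-fold with Aβ42 and 8.62-fold with Aβ40, from 65.1 ± 6.11 CPM to 6.30 ± 0.428 and 7.67 ± 1.83 CPM (SD, n = 3). P2ry6 fell 1.53-fold and 1.56-fold (adjusted p = 0.00565 and 0.00731), from 49.8 to 75.2 CPM untreated to 37.9 to 45.8 and 36.7 to 46.0 CPM. The lowest untreated library was thus close to the highest treated ones. P2ry2 was the 1 nucleotide receptor of the 3 tested that rose. Its libraries stood at 23.6, 17.6 and 18.2 CPM untreated, at 122, 118 and 127 CPM with Aβ42 and at 77.9, 105 and 107 CPM with Aβ40. The increase was 6.13-fold (log2 2.62 ± 0.15, adjusted p = 4.05e-08) and 4.82-fold (log2 2.27 ± 0.16, adjusted p = 2.07e-07). P2ry14 did not pass the filter on low counts in either cell type alone. With no filter its log2 change in microglia was -2.81 ± 0.50 with Aβ42 (adjusted p = 2.75e-04) and -1.53 ± 0.59 with Aβ40 (adjusted p = 0.0599), on 38 counts untreated, 11 with Aβ42 and 7 with Aβ40.

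Entpd1 was at 33.5, 31.9 and 46.8 CPM in untreated microglia, at 1.20, 2.21 and 2.00 CPM with Aβ42 and at 3.38, 2.24 and 5.52 CPM with Aβ40. Every treated library was below every untreated one. The fall was 18.3-fold (log2 -4.19 ± 0.25, adjusted p = 4.05e-08) and 11-fold (log2 -3.46 ± 0.28, adjusted p = 8.24e-07). Aβ42 replicate 1 held 3 counts, the detection limit, and the Aβ40 libraries held 14, 10 and 12. The size of both falls is thus uncertain.

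Adora2a had 6, 1 and 3 counts in the untreated microglia libraries, 10 in all (95% Poisson interval 4.80 to 18.4, counting error only). It had 145, 2025 and 1743 counts with Aβ42 and 209, 304 and 122 counts with Aβ40. On the CPM scale it went from 0.453 ± 0.257 to 81.7 ± 21.3 with Aβ42 and 58.2 ± 8.98 with Aβ40 (SD, n = 3). The fitted changes were 7.36 ± 0.33 and 6.85 ± 0.34 on the log2 scale (adjusted p = 4.74e-09 and 1.40e-08), and their size depends on those 10 counts. Adora1 stood at 6.60, 3.28 and 5.19 CPM untreated, at 34.0, 27.4 and 30.4 CPM with Aβ42 and at 27.8, 28.2 and 31.7 CPM with Aβ40. The groups did not overlap, and the rise was 5.78-fold and 5.57-fold (adjusted p = 5.32e-07 and 1.24e-06). Adora2b rose 5.68-fold and 4.59-fold, from 1.42 ± 0.609 CPM to 7.86 ± 0.483 and 6.63 ± 2.23 CPM.

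**Figure D2:**
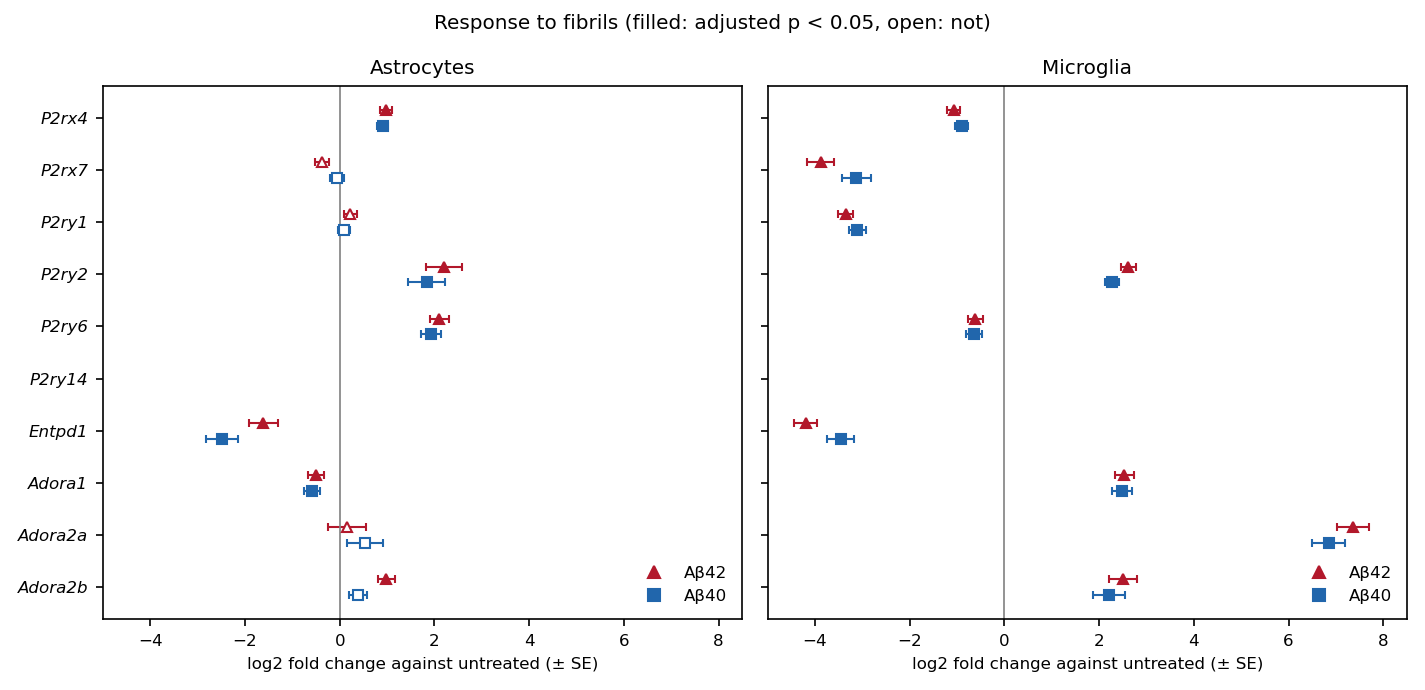
Log2 fold change against untreated cells (x axis, bars are SE) of each gene for Aβ42 (red triangles) and Aβ40 (blue squares) in astrocytes (left) and microglia (right). Filled symbols passed an adjusted p of 0.05. In microglia all 9 genes tested passed for both fibrils, with P2rx7, P2ry1 and Entpd1 between -4.19 and -3.11 and Adora2a at 7.36 and 6.85. P2ry14 was not tested within a cell type.

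In astrocytes, P2rx4, P2ry2 and P2ry6 rose with both fibrils, and Entpd1 and Adora1 fell with both. With Aβ42, 4 of 9 genes were higher and 2 lower, where 16.5% of all genes were higher and 20.4% lower. With Aβ40, 3 were higher and 2 lower, where 14.9% of all genes were higher and 18.4% lower. The median log2 change of the 9 genes was 0.23 and 0.39, against 0.00 over all genes in both. These medians are the values of P2ry1 with Aβ42 and of Adora2b with Aβ40, neither of which passed. P2ry6 stood at 10.9, 7.18 and 12.3 CPM untreated, at 51.1, 47.1 and 35.8 CPM with Aβ42 and at 37.5, 42.5 and 39.2 CPM with Aβ40. It rose 4.30-fold (log2 2.10 ± 0.21, adjusted p = 1.56e-05) and 3.82-fold (log2 1.93 ± 0.21, adjusted p = 3.17e-05), with no overlap. P2ry2 rose 4.61-fold and 3.57-fold (adjusted p = 9.57e-04 and 0.00370) from a low level of 1.95, 0.479 and 1.69 CPM. P2rx4 went from 98.5, 83.8 and 75.5 CPM to 171, 169 and 168 CPM with Aβ42 and to 155, 167 and 160 CPM with Aβ40, a rise of 1.97-fold and 1.87-fold (adjusted p = 9.49e-05 and 1.91e-04). All treated libraries were above all untreated ones for these 3 genes. In these libraries the astrocyte marker sum went from 9350 ± 1010 to 5730 ± 121 and 6380 ± 169 CPM, the oligodendrocyte lineage sum from 2210 ± 433 to 1330 ± 52.9 and 1360 ± 10 CPM, and the neuronal sum from 144 ± 21.8 to 61.2 ± 5.76 and 68.6 ± 2.11 CPM. Of the 8 astrocyte markers, 2 were higher and 5 lower with Aβ42, and 3 were higher and 5 lower with Aβ40. The microglial sum went from 329 ± 25.5 to 65.9 ± 11.8 and 38.7 ± 6.42 CPM. The endothelial sum went from 19.0 ± 0.85 to 12.9 ± 0.917 and 14 ± 1.45 CPM, and the fibroblast and meningeal sum stood at 187 to 276 CPM throughout. Of the 6 fibroblast and meningeal markers, 1 was higher and 2 lower with each fibril. The part of these marker changes in the astrocyte results was not tested.

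Adora1 fell 1.41-fold with Aβ42 and 1.51-fold with Aβ40 in astrocytes, from 33.1, 37.1 and 31.0 CPM to 27.1, 23.5 and 20.8 CPM and to 19.7, 26.8 and 20.1 CPM. The groups did not overlap, but the adjusted p of 0.0419 and 0.0197 lay near the threshold. Leaving out 1 library ended the Aβ42 call in 6 of 9 fits (control replicates 1 and 2, Aβ42 replicates 2 and 3 and Aβ40 replicates 1 and 3, log2 -0.49 to -0.40), and the Aβ40 call without Aβ40 replicate 1 or 3 (log2 -0.51 and -0.52). Adora2b rose 1.97-fold with Aβ42 (7.62 to 8.29 against 3.62 to 4.55 CPM, adjusted p = 0.00135). With Aβ40 its log2 change was 0.39 with a 95% interval of -0.015 to 0.787 (adjusted p = 0.131). The remaining genes did not pass with either fibril. P2rx7 had log2 changes of -0.37 and -0.06 (adjusted p = 0.0807 and 0.784), P2ry1 of 0.23 and 0.09 (adjusted p = 0.220 and 0.660) and Adora2a of 0.16 and 0.53 (adjusted p = 0.793 and 0.317). For P2ry1 the 95% intervals were -0.071 to 0.524 and -0.208 to 0.384, and without control replicate 2 its Aβ42 change passed (log2 0.34, adjusted p = 0.0366).

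Entpd1 was low in astrocyte cultures, with 9, 12 and 37 counts untreated, 12, 6 and 10 with Aβ42 and 6, 9 and 5 with Aβ40. The scaled level went from 2.66 ± 0.191 to 0.877 ± 0.30 and 0.479 ± 0.146 CPM (SD, n = 3), a fall of 3.06-fold and 5.60-fold (adjusted p = 0.00192 and 1.52e-04). In the same libraries the 8 microglial markers summed to 303 to 354 CPM untreated, 56.3 to 79.0 CPM with Aβ42 and 31.8 to 44.5 CPM with Aβ40, with 7 and 8 of the 8 markers lower. The part of these markers in the fall of Entpd1 was not tested.

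**Figure D3:**
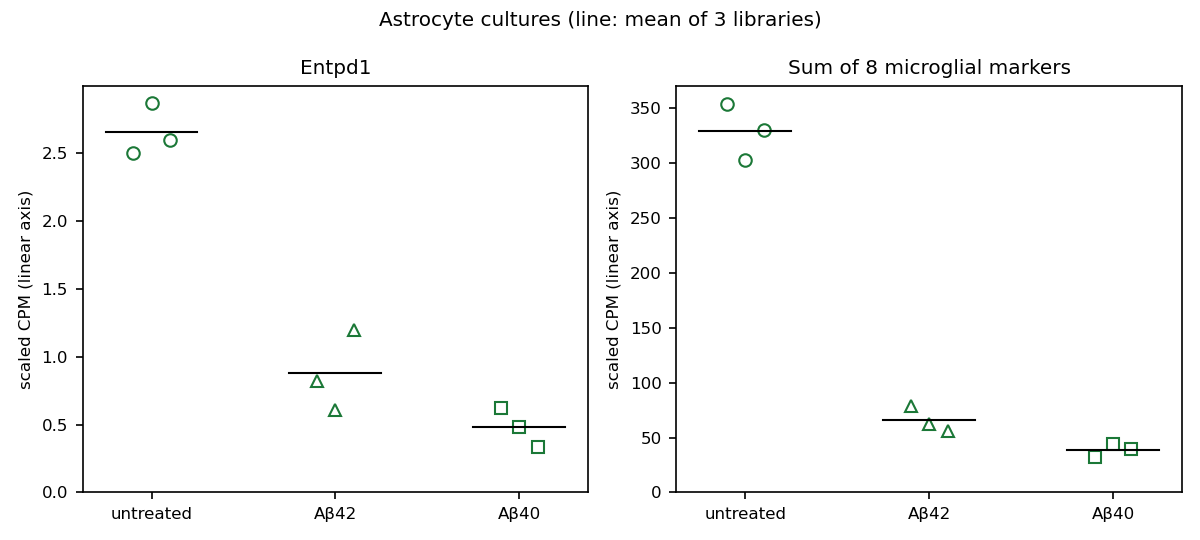
Entpd1 (left) and the sum of 8 microglial markers (right) in scaled CPM (linear axes) in each astrocyte library, with bars at the mean of 3 libraries. Both are lower in all 6 treated libraries than in the 3 untreated ones, with means of 2.66, 0.877 and 0.479 CPM for Entpd1 and 329, 65.9 and 38.7 CPM for the markers.

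The response to each fibril was then compared between the cell types, as the log2 change in microglia minus that in astrocytes, in the fit over 18 libraries. For Aβ42, 3 of 10 genes had the more positive change in microglia and 6 the more negative, where 19.3% of all genes were called positive and 17.9% negative. For Aβ40 these were 3 and 4 genes, where 16.0% of all genes were called positive and 16.5% negative. P2rx4 and P2ry6 rose in astrocytes and fell in microglia, with differences of -2.07 ± 0.18 and -2.72 ± 0.26 for Aβ42 (adjusted p = 4.26e-08 and 1.80e-07). Adora1 fell in astrocytes and rose in microglia, with a difference of 3.03 ± 0.26 (adjusted p = 4.99e-08). After treatment, Adora1 stood at 34.3 ± 3.02 and 32.4 ± 2.16 CPM in microglia and 22.5 ± 2.72 and 20.9 ± 3.52 CPM in astrocytes with Aβ42 and Aβ40 (scaled over 18 libraries), whereas before treatment it was higher in astrocytes. The treated levels were not tested against each other. P2rx7, P2ry1 and Adora2a, which passed in microglia alone, differed by -3.47 ± 0.34, -3.58 ± 0.21 and 7.22 ± 0.60 for Aβ42. P2ry2 rose in both, and its difference of 0.41 ± 0.42 for Aβ42 and 0.43 ± 0.42 for Aβ40 did not pass (adjusted p = 0.477 and 0.476). Entpd1 fell in both, by more in microglia with Aβ42 (-2.59 ± 0.45, adjusted p = 1.67e-04), while the difference with Aβ40 did not pass (-0.99 ± 0.51, adjusted p = 0.154). P2ry14 passed for Aβ42 at an adjusted p of 0.0412 and did not by DESeq2 (adjusted p = 0.0851), at -2.04 on the log2 scale by both.

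**Figure D4:**
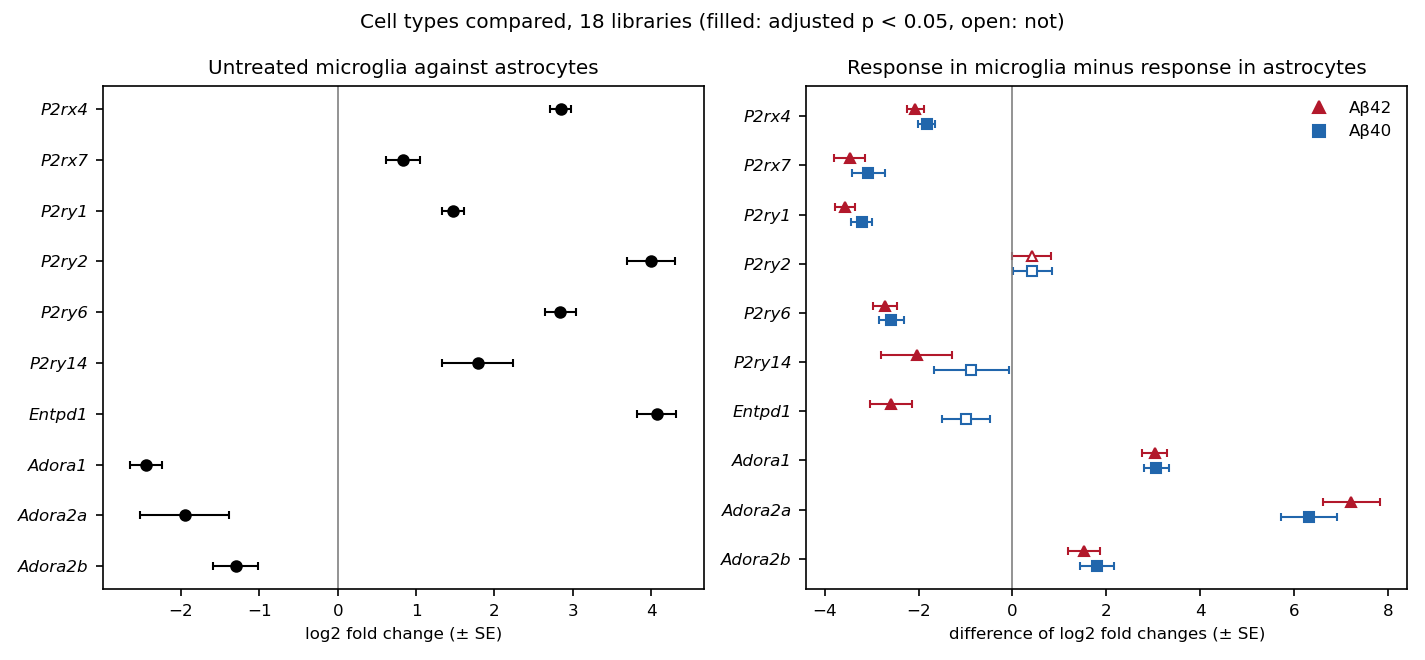
Log2 fold change of untreated microglia against untreated astrocytes (left) and the log2 change with Aβ42 (red triangles) or Aβ40 (blue squares) in microglia minus that in astrocytes (right), with SE bars and filled symbols where the adjusted p was under 0.05. The 3 adenosine receptors lie below 0 on the left and above 0 on the right, and P2ry2 is the gene whose response difference has an open symbol for both fibrils.

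Aβ42 and Aβ40 were also set against each other. In astrocytes 0 of 9 genes passed by edgeR, where 0.0599% of all genes were higher and 0.0257% lower with Aβ42. At an unadjusted p under 0.05 there were 2 (Entpd1 and Adora2b, both above their Aβ40 level), and DESeq2 called 0 after adjustment and 1 before it. Adora2b differed by 0.59 on the log2 scale (95% interval 0.246 to 0.943, adjusted p = 0.260), with all Aβ42 libraries above all Aβ40 ones. In microglia 0 of 9 passed, where 11.3% of all genes were higher and 9.01% lower with Aβ42. At an unadjusted p there were 2 by edgeR (P2ry2 and Adora2a), and DESeq2 gave 0 after adjustment and 3 before it. For neither cell type was the share of all genes at an unadjusted p under 0.05 computed. The unadjusted counts therefore cannot be set against it. The intervals for Adora2a were 0.102 to 0.929 and for P2rx7 -1.587 to 0.086. Microglia Aβ42 replicate 1 was shallow (2613723 counts on genes), at 8.0 CPM of P2rx7 where the other Aβ42 libraries had 3.16 and 2.11. Aβ40 replicate 3 was shallower still (2271834 counts). The 8 microglial markers summed to 3140 CPM in Aβ42 replicate 1, against 1930 and 2250 CPM in the other Aβ42 libraries. What set Aβ42 replicate 1 apart was not tested. Without Aβ42 replicate 1, 4 of 10 genes tested passed. P2rx4 was at -0.30, P2rx7 at -1.0, P2ry2 at 0.35 and Adora2a at 0.67 on the log2 scale. The share of all genes passing in that fit was not computed, so the 4 cannot be set against it.

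Other genes of the pathway were measured in the same libraries. Of 10 other nucleotide and adenosine receptors, 7 were tested between untreated cell types. In microglia 3 were higher and 4 lower, where 34.2% of all genes tested were higher and 34.5% lower. The ATP-gated channel genes P2rx6 and P2rx3 were 38.2-fold and 7.0-fold lower there (adjusted p = 3.67e-11 and 4.63e-08). For the treated microglia, 27.1% of all genes tested were higher and 26.6% lower with Aβ42, and 19.6% and 21.4% with Aβ40. Of these 10 receptors, 4 were tested in microglia, where 1 rose and 3 fell with each fibril. P2ry12, the ADP receptor that marks resting microglia, fell from 43.3 ± 7.79 to 0.454 ± 0.41 CPM with Aβ42 and 0.998 ± 0.735 CPM with Aβ40 (log2 -6.09 and -5.67). The related P2ry13 fell from 22.0 ± 4.38 to 0.21 ± 0.174 and 0.308 ± 0.132 CPM. P2ry12 had 0 to 14 counts per Aβ42 library and 2 to 4 per Aβ40 library, and P2ry13 had 1 to 4 and 1, so the size of both falls is uncertain. P2rx5, another ATP-gated channel, rose in both cell types, by 2.51 and 3.06 on the log2 scale in microglia and by 2.89 and 3.06 in astrocytes. Of 5 such receptors tested in astrocytes, 1 rose and 4 fell with Aβ42, and 1 rose and 2 fell with Aβ40, where 16.5% of all genes were higher and 20.4% lower with Aβ42 and 14.9% and 18.4% with Aβ40.

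Of 14 extracellular enzymes, 11 were tested in each cell type. In microglia 5 rose and 3 fell with Aβ42 (27.1% and 26.6% of all genes), and 3 rose and 2 fell with Aβ40 (19.6% and 21.4% of all genes). Apart from the rises with Aβ42, these counts lay near the shares of all genes. Nt5e (CD73), the enzyme after CD39, fell from 146 ± 13.4 to 18.9 ± 5.92 and 21.8 ± 2.71 CPM in microglia (log2 -3.06 and -2.76) and from 3.86 ± 1.28 to 0.654 ± 0.0872 and 0.485 ± 0.157 CPM in astrocytes, where the microglial markers fell over the same libraries and their part was not tested. Ada, which converts adenosine to inosine, rose in microglia by 1.54 and 1.53 on the log2 scale, and the ectonucleotide pyrophosphatase Enpp3 by 2.90 and 2.97. In astrocytes 3 enzymes rose and 3 fell with Aβ42 (16.5% and 20.4% of all genes), and 2 rose and 1 fell with Aβ40 (14.9% and 18.4% of all genes). Of 10 genes of nucleoside uptake and metabolism, 8 were tested in microglia, where 2 rose and 6 fell with each fibril. The concentrative nucleoside transporter Slc28a2 fell there by 3.36 and 3.65 on the log2 scale, and the AMP deaminase Ampd3 rose by 1.43 and 1.36. In astrocytes 1 of 8 rose and 1 fell with each fibril, Ampd3 and the adenosine kinase Adk.

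The shares over all genes given above for each fibril and cell type apply to the next lists too. Of 7 genes of nucleotide release, 3 rose and 1 fell with Aβ42 in microglia and 2 rose and 2 fell with Aβ40. The connexin Gjb2 rose by 4.29 and 4.03 on the log2 scale, and Calhm2 fell by 2.41 and 2.18 on that scale. In astrocytes 0 rose and 3 fell with Aβ42, and 1 rose and 3 fell with Aβ40. Of 8 genes of P2X7 and inflammasome output, 3 rose and 4 fell with Aβ42 in microglia, and 3 rose and 3 fell with Aβ40. Il1b, the interleukin-1β gene, rose from 225 ± 23.1 to 4350 ± 534 and 4600 ± 441 CPM, whereas the adaptor Pycard fell from 54.5 ± 17.4 to 5.70 ± 2.53 and 4.93 ± 0.96 CPM. In astrocytes 4 of these 8 rose with each fibril, with 0 falling for Aβ42 and 1 for Aβ40. Il1b rose there from 0.751 ± 0.461 to 105 ± 7.85 and 81.8 ± 5.36 CPM.

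The genes whose pattern was most like that of a member were found over the 9 libraries of a cell type, by Pearson's r of log2 CPM, as a description. For Adora2a in microglia they were Cd40 (r = 0.9985), Slc25a37 (0.9984) and Cdkn2b (0.9980). For P2ry6 in astrocytes they were Rhbdf2 (0.9982), Limk2 (0.9974) and Stat6 (0.9972). These libraries share their treatment groups.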

How the data were processed

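Total RNA was made into poly(A) libraries (stranded kit). The authors aligned reads to rat rn5 with STAR and used Salmon and DESeq2. They deposited gene counts, 1 table per library, as whole numbers per symbol. Versions, annotation and the strand setting used in counting are not given in the sources used here. Reads assigned to no gene (astrocytes 26.0 to 34.2%, microglia 21.7 to 24.5%) stayed out of library sizes. Columns of per-sample values left unused numbered 0.

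Groups came from the labels. Genes passing filterByExpr (11690 in astrocytes, 10837 in microglia, 11581 over both) were scaled by TMM and tested with edgeR 4.0.16 (glmQLFit, R 4.3.3), with all groups of a fit sharing the spread. DESeq2 1.42.0, other scalings and filters, fold limits, a replicate block and leaving out each library were alternatives. An exact permutation test of 3 against 3 cannot go below p = 0.1. Replicates differed beyond sampling noise (chi-square per degree of freedom of at least 1.76). The code was tested on simulated data. All 10 members are named, with at most 2 companion genes per list and direction, by smallest p. Members and lists were chosen with earlier results of these data known. Promoters came from RefSeq (GRCr8).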

Additional observations from a re-analysis of the deposited data

Results flagged for a closer look

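A difference between the cell types in the response to a fibril was tested as an interaction in edgeR over 18 libraries. It brought out 16 values from 10 genes and 2 fibrils, each the log2 change in microglia minus that in astrocytes. Of all genes tested, 19.3% were called positive and 17.9% negative with Aβ42, and 16.0% and 16.5% with Aβ40. With Aβ42, 5 of the 6 nucleotide receptors and CD39 were the more negative in microglia (P2ry2 did not pass, at 0.41), with P2rx4 at -2.07, P2rx7 at -3.47, P2ry1 at -3.58, P2ry6 at -2.72, P2ry14 at -2.04 and Entpd1 at -2.59. The adenosine receptors were the more positive, with Adora1 at 3.03, Adora2a at 7.22 and Adora2b at 1.52. With Aβ40 the values were -1.83 for P2rx4, -3.08 for P2rx7, -3.21 for P2ry1 and -2.59 for P2ry6, and 3.06 for Adora1, 6.33 for Adora2a and 1.80 for Adora2b. The 2 sets share the untreated libraries.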

How the results depend on the processing

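With fold limits added, fewer genes were called. At 2-fold, 3 genes were called in astrocytes with Aβ42 and 3 with Aβ40. At 5-fold these were 0 and 1, with 5 in microglia with Aβ40 and 5 between untreated cell types. Requiring 10 counts in every library left 3 called in astrocytes with Aβ40, 5 between untreated cell types and 5 for the Aβ42 response difference, with fewer genes tested. Leaving out 1 library gave 0 to 4 genes for Aβ42 against Aβ40 in microglia, the 4 without Aβ42 replicate 1. The shares of all genes in those fits were not computed. No call changed direction. Uncalled values that changed sign ranged, without 1 library, from -0.17 to 0.83 for Adora2a in astrocytes with Aβ42, from -0.172 to 0.008 for P2rx7 in astrocytes with Aβ40, and, for Aβ42 against Aβ40 in microglia, from -0.069 to 0.115 for P2ry6 and from -0.002 to 0.136 for Adora1. Adora1 in astrocytes with Aβ42 lost its call with no filter, with only the 2 groups compared, under the replicate block (log2 -0.50, adjusted p = 0.0568) and without 6 of 9 libraries, and with Aβ40 without Aβ40 replicate 1 or 3. The P2ry14 response difference lost its call by DESeq2, with no filter, under the replicate block (log2 -1.72, adjusted p = 0.145) and without 10 of 18 libraries in turn, and its untreated difference lost its call under the replicate block. Same-numbered replicates did not as a rule deviate together (r of -0.526 to 0.358 in astrocytes, -0.194 to 0.217 in microglia), which gave no sign of pairing by number. With 3 libraries in a group, these values cannot exclude such pairing. In astrocytes r was over 0.1 in 2 of 9 same-numbered pairs and in 10 of 18 differently numbered pairs of different groups (-0.462 to 0.527). In microglia these were 1 of 9 and 2 of 18 (-0.215 to 0.225 for the latter). Whether astrocyte libraries pair in another order was not tested. With a replicate block, 5 genes were called in astrocytes with each fibril, 9 in microglia with each, 0 and 0 for Aβ42 against Aβ40, 9 between untreated cell types, and 8 and 7 for the response differences. The shares of all genes called under the block were not computed, so these counts cannot be set against them. Low counts limit P2ry14 (7 to 38 per group), Adora2a and Adora2b in untreated microglia (10 and 27), P2ry2 in untreated astrocytes (33) and Entpd1 in astrocytes (20 to 58). They also limit Entpd1 and P2rx7 in microglia with Aβ40 (36 and 58).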
